A study of Rattus norvegicus with 30 samples.

Results

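This is an account of 10 genes of transforming growth factor beta (TGF-beta) and activin signalling in rat liver 24 hours after resections of different size. They are the ligand genes Tgfb1, Tgfb2, Inhba, Inhbc and Inhbe, the receptor genes Tgfbr1 and Tgfbr2, and the inhibitor genes Fst, Bambi and Smad7. The genes were chosen by their role in the pathway, with earlier results of these data known, and found by symbol among probe sets annotated with exactly 1 gene. Of the 10, 9 were measured, each by 1 probe set, among 18166 genes in all, and Tgfbr2 was not analysed here.

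Liver RNA of 30 wild-type Wistar rats, 6 per group, was measured on the Affymetrix Rat Gene 2.0 ST microarray with an array for each animal. The groups had lost 30% (PH30), 70% (PH70) or 90% (PH90) of the liver by partial hepatectomy, or were sham-operated or unoperated. Sex and age of the rats are not in the labels, and nothing else was given to any group per the labels. The question set by the study's title is whether gene expression in the liver that remains follows resection size. Values are on a log2 scale and are relative to the median of each probe set over the 30 arrays, so levels cannot be compared between genes, and the presence of liver markers in the tissue could not be checked.

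TGF-beta and the activins are secreted dimers of one protein superfamily. A ligand binds a type II receptor, which activates a type I receptor such as Tgfbr1, and this phosphorylates Smad proteins that enter the nucleus and regulate transcription. In the liver TGF-beta and activin A are known as brakes on hepatocyte division, and TGF-beta also drives matrix production by stellate cells. Activins are dimers of inhibin beta subunits. Inhba encodes the subunit of activin A, and Inhbc and Inhbe encode beta C and beta E, which are made mainly in the liver.

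Arrays of 2 rats were unlike the rest of their group. Over all genes, PH30 rat 95 correlated on average at -0.113 with PH30 and at 0.498 with PH70. PH70 rat 139 had -0.114 with the other PH70 arrays and 0.203 with sham, while the other PH70 arrays correlated at 0.493 to 0.546 with their group. Both stayed in the fits, and results in PH30 and PH70 are given with and without them. The mean of 10 markers of dividing cells was 2.59 in PH30 rat 95 and -0.19 in PH70 rat 139. The unoperated rats carry the highest animal numbers (145 to 152, against 37 to 143), and the effect of numbering order cannot be separated from that of operation.

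Across the 5 groups the ligand genes changed and the measured receptor and inhibitor genes did not pass the test. A moderated F test in limma, adjusted by Benjamini-Hochberg over all genes, called all 5 ligand genes, with adjusted p between 1.95e-10 for Inhbc and 7.28e-05 for Tgfb1. It called none of Tgfbr1, Fst, Bambi and Smad7 (adjusted p of 0.462, 0.348, 0.804 and 0.687, and unadjusted p of 0.226 or more). The same test called 42.7% of all genes, against 5 of the 9 members.

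**Figure D1:**
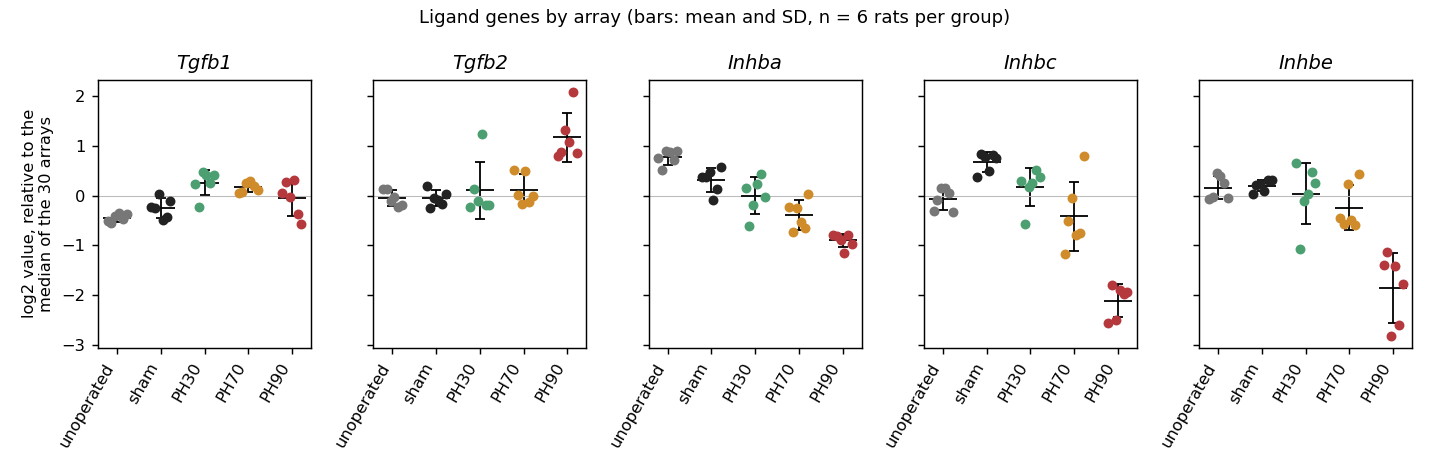
Log2 values of the 5 ligand genes on each of the 30 arrays (y axis, relative to the median of the 30 arrays) by group (x axis). Points are rats, horizontal marks are group means and bars are SD over 6 rats. Inhba, Inhbc and Inhbe are lowest and Tgfb2 is highest in the 6 PH90 rats.

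Inhbc, the beta C subunit, showed the largest difference of the members. Its values in sham-operated rats ran from 0.37 to 0.83 (median 0.77), and in unoperated rats from -0.32 to 0.15 (median -0.02). In PH30 they ran from -0.57 to 0.50 (median 0.27), and in PH70 from -1.16 to 0.79 (median -0.62). All 6 PH90 rats lay between -2.56 and -1.79 (median -1.95), below every rat of the other 4 groups.

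After 90% resection Inhbc was 6.87-fold lower than in sham (log2 difference -2.78, SE 0.22, limma adjusted p = 2.7e-11), in 6 of 6 rats. It was also 3.24-fold lower than after 70% (-1.69, adjusted p = 7.38e-07). After 70% it was 2.12-fold lower than in sham (-1.09, SE 0.22, adjusted p = 0.000572). One PH70 rat, number 139, lay at 0.79, within the sham range, and without rats 95 and 139 the PH70 difference was -1.33 (adjusted p = 1.27e-07). After 30% the difference from sham was -0.50 (adjusted p = 0.183, and -0.36 without both rats). PH70 against PH30 differed by -0.58 (adjusted p = 0.15), and by -0.97 without both rats (adjusted p = 7.36e-05).

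The choice of control mattered for Inhbc. Sham-operated rats lay above unoperated rats without overlap, by 0.74 (SE 0.22), which did not pass the test in the fit of all 5 groups (adjusted p = 0.122). It passed in a fit of these groups alone (adjusted p = 0.000668) and without rats 95 and 139 (adjusted p = 0.00641). Against unoperated rats PH90 remained lower (-2.04, adjusted p = 9.3e-09), PH70 differed by -0.35 (adjusted p = 0.334) and PH30 by 0.23 (adjusted p = 0.563).

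Inhbe, the beta E subunit, fell after 90% resection as well. Sham values ran from 0.03 to 0.32 (median 0.22) and unoperated values from -0.07 to 0.46 (median 0.11). PH30 ran from -1.06 to 0.66 (median 0.14) and PH70 from -0.60 to 0.43 (median -0.47). The 6 PH90 rats lay between -2.80 and -1.13 (median -1.59), below all other rats, the nearest being PH30 rat 95 at -1.06.

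Inhbe was 4.13-fold lower in PH90 than in sham (-2.05, SE 0.26, adjusted p = 1.49e-07) and 3.04-fold lower than in PH70 (-1.61, adjusted p = 1.72e-05), each in 6 of 6 rats. The PH70 difference from sham was -0.44 (95% interval -0.97 to 0.08, adjusted p = 0.274, and -0.58 with adjusted p = 0.0617 without rats 95 and 139). It passed with array weights (-0.54, adjusted p = 0.0408). The PH30 difference was -0.16 (adjusted p = 0.803), and it was 0.06 without both rats.

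Inhbe and Inhbc are neighbours on the minus strand of chromosome 7 in the RefSeq assembly GRCr8, with 0 annotated genes between them. Over the 30 arrays their values correlated at r = 0.905, and at 0.664 after the mean of each group was subtracted. This is a description over arrays that share their normalisation. The 250 bases before the start of each gene, from RefSeq, are shown because both genes fell after 90% resection. Capitals mark matches to the motifs searched.
Inhbe chr7:65064520-65064769 minus strand: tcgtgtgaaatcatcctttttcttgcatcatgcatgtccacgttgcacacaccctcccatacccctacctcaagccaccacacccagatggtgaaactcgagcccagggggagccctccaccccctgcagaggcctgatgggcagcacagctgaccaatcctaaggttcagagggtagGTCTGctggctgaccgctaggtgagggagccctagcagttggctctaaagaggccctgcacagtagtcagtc
Inhbc chr7:65082920-65083169 minus strand: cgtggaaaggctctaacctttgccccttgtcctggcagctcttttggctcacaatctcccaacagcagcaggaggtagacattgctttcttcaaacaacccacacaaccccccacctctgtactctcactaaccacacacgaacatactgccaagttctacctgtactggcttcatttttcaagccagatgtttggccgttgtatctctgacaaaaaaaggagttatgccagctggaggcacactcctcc
Both strands were searched for 6 motifs: the SMAD element CAGAC, its palindromic form GTCTAGAC, the C/EBP-ATF composite TGATGNAAT, the E-box CACGTG, the cAMP response element TGACGTCA and the TATA box TATAAA. None of these motifs contains another. Only these exact forms were counted, so a stretch without a match can still hold a variant. The stretch before Inhbe holds the C/EBP-ATF composite with a last base other than T, on the reverse strand. It is left in lower case, and the share of all stretches with this variant was not counted. The stretch before Inhbe held 1 match to the exact forms, to CAGAC on the reverse strand, a motif found in 42.9% of the 33469 RefSeq stretches of this length. The stretch before Inhbc held 0. Of the other members with a sequence, Tgfb2 had 1 E-box (5.59% of all stretches) and Inhba 1 TATA box (12.9%). Fst was not in the sequence table.

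**Figure D2:**
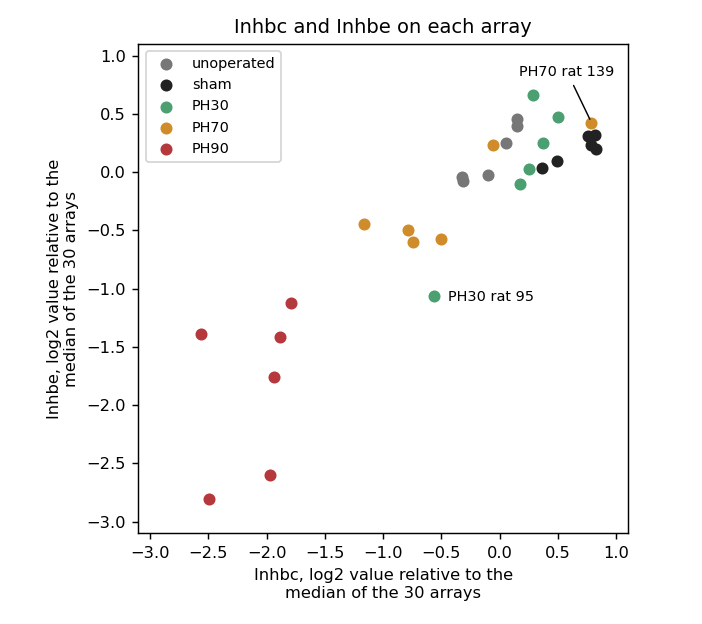
Log2 values of Inhbc (x axis) and Inhbe (y axis) on each of the 30 arrays, relative to the median of the 30 arrays, coloured by group. The 6 PH90 rats lie at the lower left, PH30 rat 95 lies at -0.57 for Inhbc and -1.06 for Inhbe, and PH70 rat 139 lies among the sham rats for Inhbc.

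Inhba, which encodes the subunit of activin A, was lower with each larger resection. Unoperated rats ran from 0.51 to 0.89 (median 0.82), sham rats from -0.09 to 0.58 (median 0.37) and PH30 rats from -0.61 to 0.43 (median 0.06). PH70 rats ran from -0.72 to 0.04 (median -0.39) and PH90 rats from -1.14 to -0.78 (median -0.85). The PH90 rats did not overlap any other group, and each of the other groups overlapped its neighbours in this order.

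Inhba fell 2.31-fold in PH90 (-1.21 from sham, SE 0.14, adjusted p = 3.52e-08) and 1.62-fold in PH70 (-0.70, SE 0.14, adjusted p = 0.000526, and -0.78 without rats 95 and 139). PH90 was lower than PH70 by 0.51 on the log2 scale (log2 difference -0.51, adjusted p = 0.00628). The other steps of the order did not pass: PH70 against PH30 differed by -0.39 (adjusted p = 0.127), PH30 against sham by -0.31 (adjusted p = 0.202) and sham against unoperated by -0.46 (adjusted p = 0.13). Without rats 95 and 139 the step from PH30 to PH70 was -0.59 (adjusted p = 0.000935), and that from unoperated to sham passed at the same size (adjusted p = 0.0261). The step from PH30 to PH70 also passed without either of these rats alone (adjusted p = 0.00812 without rat 95 and 0.0318 without rat 139). Against unoperated rats Inhba was lower in PH30 by a log2 difference of -0.77 (adjusted p = 0.000617).

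The levels of some hepatocyte markers also changed after resection. The mean of 9 hepatocyte markers ran from -0.31 to -0.19 in PH90 and from 0.06 to 0.28 in sham, and 5 of the 9 were lower and 1 (Tat, a glucocorticoid-induced enzyme) higher in PH90. The mean also lay below the sham range in PH70 (-0.21 to -0.0018, with 3 of 9 lower) and in PH30 (-0.15 to 0.03, with 1 of 9 lower). Over all genes 3.34%, 8.15% and 14.7% were lower in PH30, PH70 and PH90, and 19.9% were higher in PH90. In PH30 none of Inhba, Inhbc and Inhbe passed against sham, and in PH70 Inhba and Inhbc were called lower and Inhbe did not pass. In PH90 Cyp2e1, a pericentral P450, differed by -2.52 and Ttr, a plasma carrier, by -0.22. The mean of Alb was -0.06 in PH90 and 0.01 in sham. Like Tat, Serpina1 and Cps1 had higher means in PH90 (0.01 and 0.21) than in sham (-0.01 and 0.03). The part of these marker changes in the falls of Inhba, Inhbc and Inhbe was not tested. In tissue RNA, fewer cells of a type and less RNA per cell cannot be told apart.

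Tgfb2, one of the 3 TGF-beta isoforms, rose after 90% resection. Sham rats ran from -0.25 to 0.20 (median -0.07), unoperated rats from -0.23 to 0.13 (median -0.07) and PH70 rats from -0.17 to 0.52 (median 0.00). PH90 rats ran from 0.79 to 2.08 (median 0.98), with the top value in rat 106. In PH30 the range was -0.23 to 1.24 (median -0.15), and rat 99 alone was above 0.15.

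Tgfb2 was 2.33-fold higher in PH90 than in sham (1.22, SE 0.20, adjusted p = 1.44e-05) and 2.07-fold higher than in PH70 (1.05, adjusted p = 0.000224), without overlap in either comparison. Against PH30 the difference was 1.06 (adjusted p = 0.000129), and 4 of the 6 PH90 rats lay below PH30 rat 99. The PH30 and PH70 differences from sham were 0.16 and 0.17 (adjusted p of 0.729 and 0.661), with 95% intervals from -0.25 to 0.58 and from -0.24 to 0.59. Rats 95 and 139 are in other groups, so leaving them out cannot change the Tgfb2 difference between PH90 and sham. Only its SE and adjusted p can change (adjusted p = 2.1e-05 without them).

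Tgfb3, another isoform, was also highest of its group in PH30 rat 99 (1.58) and PH90 rat 106 (2.44). The other PH90 rats ran from 0.36 to 1.72, and 3 of them lay below PH70 rat 97, at 0.66 the highest of the PH70, sham and unoperated rats. Tagln, a smooth muscle actin-binding protein and TGF-beta target, reached 2.34 in PH30 rat 99, ran from 1.13 to 2.96 in PH90, and was also 2.18 and 1.83 in PH70 rats 37 and 97, which had the highest Tgfb2 of their group. Ccn2, another target, was 0.74 in PH30 rat 99 and 0.68 in PH70 rat 97, but 0.01 in PH70 rat 37. The mean of 10 stellate cell markers ran from -0.38 to -0.01 in PH90 and from -0.01 to 0.21 in sham. In that list Des (desmin, 1.04) and Pdgfrb (0.24) were higher in PH90 and 5 were lower. Lrat, which stores retinol, had the largest difference of the 10, at -1.88, and weighs most on their mean. Of 6 sinusoidal endothelial markers 3 were lower in PH90, where 14.7% of all genes were lower and 19.9% higher. The part of these cells in the rise of Tgfb2 was not tested.

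Tgfb1, the isoform best known in the liver and made there largely by non-parenchymal cells, was higher after the smaller resections. Unoperated rats ran from -0.56 to -0.36 (median -0.44) and sham rats from -0.48 to 0.03 (median -0.24). PH30 rats ran from -0.22 to 0.48 (median 0.33), and 5 of the 6 lay above every sham rat, rat 95 being the exception. PH70 rats ran from 0.04 to 0.29 (median 0.15), all above sham. PH90 rats spread from -0.56 to 0.31 (median 0.01) and overlapped every other group.

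Tgfb1 was 1.42-fold higher in PH30 than in sham (0.50, SE 0.12, adjusted p = 0.0141) and 1.33-fold higher in PH70 (0.41, SE 0.12, adjusted p = 0.0165), with 6 of 6 rats above the sham mean in each. Without rats 95 and 139 the differences were 0.60 (adjusted p = 0.0011) and 0.42 (adjusted p = 0.00778). In PH90 the difference from sham was 0.19 (95% interval -0.06 to 0.44, adjusted p = 0.262), and it passed without PH90 rat 111 (0.29, adjusted p = 0.0473). The difference from unoperated rats was 0.39 (adjusted p = 0.012). PH90 was lower than PH30 by a log2 difference of -0.32 (SE 0.12, adjusted p = 0.048). That call was lost in a fit of these groups alone (adjusted p = 0.181), with array medians subtracted (adjusted p = 0.0513), and when any 1 of PH30 rats 65, 98, 99, 130 and 140 or PH90 rats 61, 106 and 111 was left out. PH90 did not pass against PH70 (-0.22, adjusted p = 0.224).

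Of 10 Kupffer cell and macrophage markers 1 was higher and 0 lower in PH30 against sham, 1 higher and 3 lower in PH70, and 1 higher and 6 lower in PH90. Their mean ran from -0.42 to 0.44 in PH30, -0.33 to 0.36 in PH70, -0.67 to -0.01 in PH90 and -0.01 to 0.23 in sham. Of 5 platelet markers 0 passed in PH30 and in PH70 and 1 was lower in PH90. Over all genes 5.53%, 18.6% and 34.6% were called against sham in PH30, PH70 and PH90. The mean of 10 markers of dividing cells ran from -0.95 to -0.66 in sham, -0.31 to 2.59 in PH30, -0.19 to 2.53 in PH70 and -0.77 to 0.36 in PH90. In unoperated rats it ran from -0.09 to 0.21, above every sham rat. Against unoperated rats 10 of these markers were higher in PH70, where 9.31% of all genes were higher. In PH30 and in PH90 0 passed, beside 9.85% and 33.8% of all genes called. The part of these cells in the level of Tgfb1 was not tested.

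**Figure D3:**
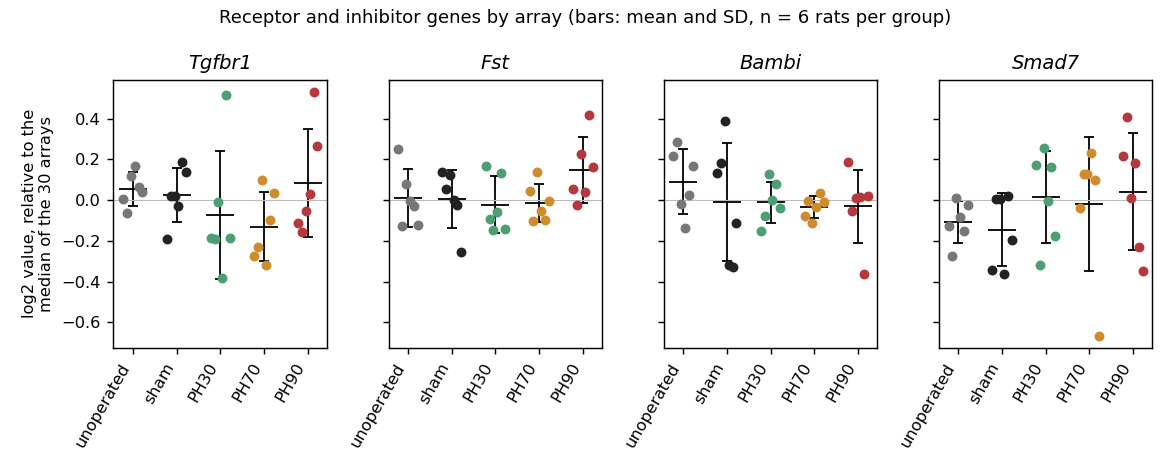
Log2 values of Tgfbr1, Fst, Bambi and Smad7 on each of the 30 arrays (y axis, relative to the median of the 30 arrays) by group (x axis). Points are rats, horizontal marks are group means and bars are SD over 6 rats. All group means lie between -0.14 and 0.15.

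Tgfbr1, the type I receptor of TGF-beta, did not pass in any comparison of the 30 arrays, and without PH30 rat 130 it was higher in PH90 than in PH30 (0.28, adjusted p = 0.0366). Its medians lay between -0.19 in PH30 and 0.05 in unoperated rats, and the highest values were single rats of PH30 (0.52) and PH90 (0.53). The difference of PH90 from sham was 0.06, with a 95% interval from -0.18 to 0.30, and that of PH70 was -0.16, from -0.39 to 0.08.

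Fst encodes follistatin, which binds activins and keeps them from their receptors. Sham rats ran from -0.25 to 0.14 (median 0.03) and PH90 rats from -0.03 to 0.42 (median 0.11). The PH90 difference from sham was 0.14 (95% interval -0.02 to 0.30, adjusted p = 0.193). In PH30 and PH70 it was -0.03 and -0.02, with intervals from -0.19 to 0.13 and from -0.18 to 0.14.

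Bambi encodes a decoy receptor without kinase activity. Its differences from sham were smaller than the SD of the sham group (0.29), and its 95% intervals in PH30, PH70 and PH90 reached from -0.23 to 0.20 at their widest. Smad7 encodes the inhibitory Smad that blocks type I receptors and is itself a TGF-beta target. Its differences from sham were 0.16 in PH30, 0.13 in PH70 and 0.19 in PH90 (adjusted p of 0.555, 0.61 and 0.316). The 6 PH70 rats ran from -0.66 in rat 139 to 0.23 (median 0.11), the other 5 at -0.04 or above. Without rats 95 and 139 the PH30 and PH70 differences were 0.23 and 0.25 (adjusted p of 0.195 and 0.091).

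**Figure D4:**
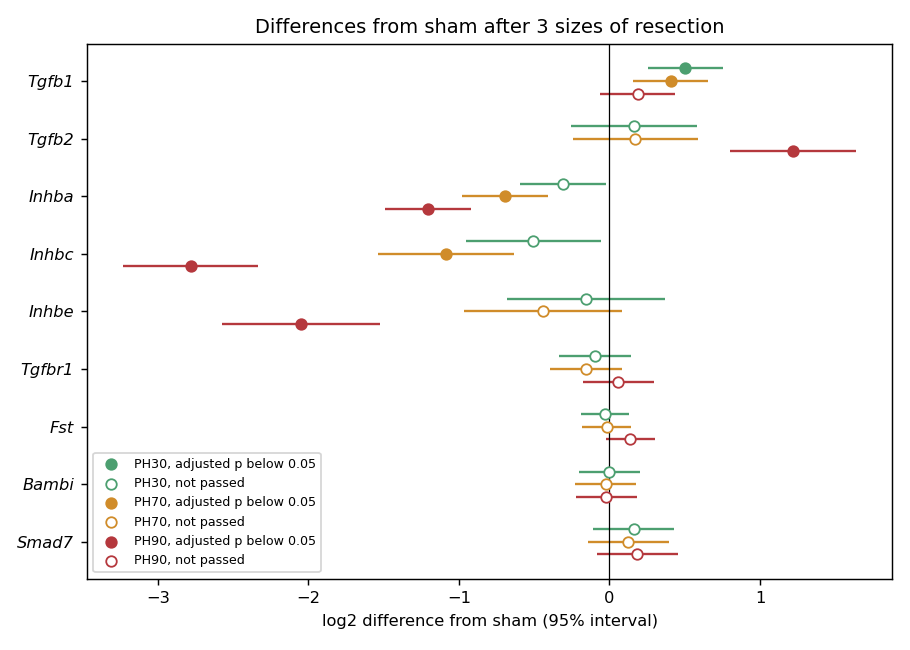
Log2 difference from sham (x axis) of the 9 measured genes (y axis) after 30, 70 and 90% resection, with 95% intervals from the fit of 30 arrays. Filled points passed an adjusted p of 0.05. Inhbc in PH90 lies farthest from 0, at -2.78.

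In counts, 1 of the 9 members was called in PH30 against sham (Tgfb1, higher), beside 5.53% of all genes (2.2% higher and 3.34% lower). In PH70 there were 3, with Tgfb1 higher and Inhba and Inhbc lower, against 18.6% of all genes (10.5% higher and 8.15% lower). In PH90 there were 4, with Tgfb2 higher and Inhba, Inhbc and Inhbe lower, against 34.6% (19.9% higher and 14.7% lower). Members that did not overlap sham numbered 0 in PH30, 1 in PH70 (Tgfb1) and 4 in PH90, beside 3.89%, 7.34% and 20.6% of all genes. The median difference of the 9 was -0.03, -0.02 and 0.06, beside medians of all genes of 0.01, -0.01 and -0.0022. The comparisons with sham share the 6 sham rats.

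Between resections, 4 members were called in PH90 against PH70, 1 higher and 3 lower, as were 24.5% of all genes (14.1% higher and 10.4% lower). In PH90 against PH30 there were 5, 1 higher and 4 lower, against 31.5% (18.4% higher and 13.1% lower). Members without overlap numbered 4 and 3, beside 10.5% and 12.9% of all genes. PH70 against PH30 had 0 of 9 in limma (2.27% of all genes, 1.76% higher and 0.512% lower) and 0 without overlap (0.611%). It had 2 members, Inhba and Inhbc, at an unadjusted p below 0.05, and these were called without rats 95 and 139, where 13.3% of all genes were called.

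Sham against unoperated rats had 0 of 9 called in limma (0.738% of all genes, 0.308% higher and 0.429% lower), with Inhba and Inhbc, 2 members, at an unadjusted p below 0.05. Of the 9, 1 (Inhbc) did not overlap, beside 2.84% of all genes. With unoperated rats as control, PH30 had 1 member higher (Tgfb1) and 1 lower (Inhba), where 9.85% of all genes were called (3.48% higher and 6.37% lower). PH70 had the same 2 members called, against 18.5% (9.31% higher and 9.17% lower). PH90 had 2 higher (Tgfb1 and Tgfb2) and 3 lower (Inhba, Inhbc and Inhbe), against 33.8% (19.3% higher and 14.5% lower). Of the other inhibin subunit genes, Inhbb had a mean of 0.20 in PH90, -0.03 in sham and -0.11 in unoperated rats. The means of Inha were -0.03, 0.0032 and 0.02 in the same groups.

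The wider pathway was followed in 65 measured genes of 71 listed by role. In PH30 against sham 2 were lower and 0 higher, a smaller share than the 5.53% of all genes called. Bmpr2, the type II receptor for BMPs, differed by -0.36 (adjusted p = 0.0173) and Acvr2a, a type II receptor for activins, by -0.26 (adjusted p = 0.0196). Both were also lower in PH70 (-0.56 and -0.23) and in PH90 (-0.35 and -0.49). Acvr2a ran from -0.46 to -0.20 in PH90 and from 0.03 to 0.34 in sham, without overlap. Without PH30 rat 65 or without sham rats 45 or 143, 1 gene was called in PH30. Without rats 95 and 139 there were 4, where 10.9% of all genes were called.

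In PH70 against sham 2 of the 65 pathway genes were higher and 3 lower, also a smaller share than over all genes (18.6%). The higher ones were the targets Id1, a BMP-induced inhibitor of helix-loop-helix factors (0.49, adjusted p = 0.0151), and Hamp, which encodes hepcidin (0.68, adjusted p = 0.0245). Dcn, decorin, a matrix proteoglycan that binds TGF-beta, was lower (-0.82, adjusted p = 0.0499). The choice of control mattered for Dcn, whose mean was -0.21 in PH70, 0.61 in sham and -0.18 in unoperated rats. The count was 10 without rats 95 and 139 (23.7% of all genes in that fit), 2 without PH70 rat 97 and 3 without sham rat 41.

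In PH90 against sham 15 of the 65 pathway genes were higher and 9 lower, with a median of 0.02. That is near the share of all genes, of which 19.9% were higher and 14.7% lower, and the counts by role were not tested against it. Of 9 genes of TGF-beta ligands and their activation, Tgfb3 rose (1.07, adjusted p = 0.00346) and Furin, a protease that cleaves ligand precursors, fell (-0.36, adjusted p = 0.0372). Of 13 other ligands 3 were higher, with Bmp10, a BMP ligand, at 0.86 and Gdf15, a stress-induced cytokine, at 0.44, and 1 was lower. The mean of Gdf15 was 0.19 in PH90, -0.26 in sham and -0.01 in unoperated rats. Of 10 receptors 0 were higher and 4 lower, with Acvr2a and Acvr1, a type I receptor, as the largest falls (-0.49 and -0.35). None of 7 Smad genes passed in limma (0 called, 1 at an unadjusted p below 0.05, with differences from -0.18 for Smad4 to 0.15 for Smad1).

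Inhibitors and negative regulators of the pathway were higher in 5 of 13 and lower in 1 in PH90, where 19.9% of all genes were higher and 14.7% lower. Tgif1, a nuclear co-repressor of Smads, rose 2.67-fold (1.42, SE 0.21, adjusted p = 1.79e-06), from 0.28 to 2.30 against -0.33 to -0.06 in sham. Smurf1, a ubiquitin ligase for Smads and receptors, rose by 0.56 (adjusted p = 1.79e-06). Of 13 transcriptional targets 6 were higher and 2 lower, with a median of 0.32. Tagln rose 5.39-fold (2.43, SE 0.43, adjusted p = 3.17e-05) and Ccn2, connective tissue growth factor, 3.47-fold (1.80, SE 0.28, adjusted p = 3.92e-06). Id1 rose by 1.57 and Hamp by 0.90. The targets that fell, named after their values were seen, were the matrix genes Tgfbi (-1.49, adjusted p = 5.5e-09) and Col3a1 (-0.63, adjusted p = 0.000706).

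**Figure D5:**
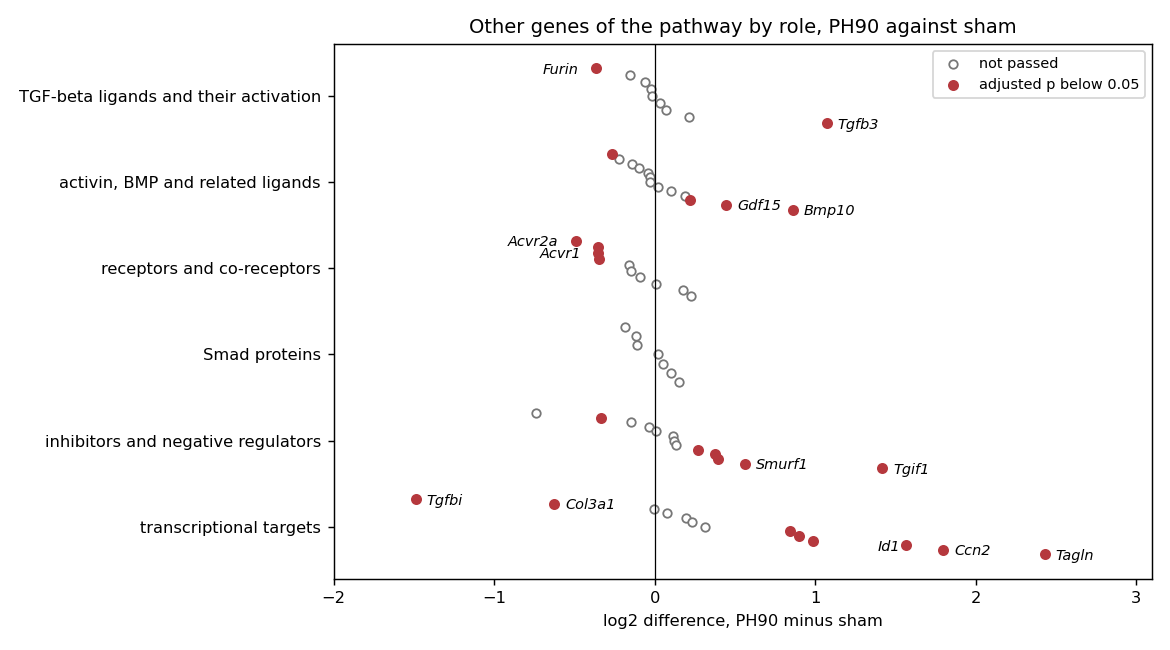
Log2 difference between PH90 and sham (x axis) of 65 further genes of the pathway, grouped by role (y axis). Filled points passed an adjusted p of 0.05. The 4 receptor genes that passed lie below 0, and 6 of the 8 targets that passed lie above it.

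For each member the 3 genes most like it were found by Pearson correlation over the 30 arrays, among all genes. For Inhbc they were Atp6v0d1, Asgr1 and Masp1 (r of 0.965, 0.962 and 0.96, and 0.765, 0.718 and 0.735 after group means were subtracted). For Inhbe they were S1pr1, Slc30a10 and Cxxc5 (0.954, 0.949 and 0.948), and for Inhba they were Tymp, Zbtb44 and Pon3 (0.926, 0.922 and 0.922). After group means were subtracted these values were 0.803, 0.79 and 0.87 for Inhbe, and 0.576, 0.55 and 0.336 for Inhba. For Tgfb2 they were Cryab, Itgb1 and Tgfb3 (0.933, 0.929 and 0.928, and 0.837, 0.856 and 0.901 within groups). Those of Tgfb1 were Sipa1, Fam222b and Cic (0.881, 0.848 and 0.843). For Smad7 the nearest were Gatad2b, Nfic and Fam222b (0.752, 0.75 and 0.745), so Fam222b is among the nearest of both Tgfb1 and Smad7, which correlated with each other at 0.542 and at 0.619 within groups. Tgfbr1, Fst and Bambi had no gene above 0.756. These values share arrays, normalisation and group differences and are descriptions.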

How the data were processed

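Each rat was 1 array and 1 replicate, and groups were taken from the titles of the samples. The labels name no separate cages or batches, and animal numbers pair no rats across groups. The authors deposited 1 table of log2 values for 29489 probe sets, made with RMA in Affymetrix Expression Console per the submitters' processing notes (the notes list no version). The RMA method subtracts background, makes array distributions alike and combines the probes of a set. The log2 scale is taken from RMA. Every probe set has a median of 0 over the 30 arrays (within 5e-07), a centring that the table does not state. It keeps differences between arrays and loses levels, so no filter on low signal could be applied. Signal over background is unknown, and 6 arrays per group limit the precision. Column medians lie between -0.009 and 0.022.

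The platform's annotation gave exactly 1 symbol to 18511 probe sets, several to 575 and none to 10403. RefSeq (GRCr8) held the Entrez ID of 18394 and changed 0 symbols. Probe sets of a gene were averaged.

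The test was limma's moderated test (version 3.58.1, R 4.3.3), fitted to all 30 arrays with a mean for each group (two-sided, 25 residual and 3.71 prior degrees of freedom), with Benjamini-Hochberg adjustment over 18166 genes and a threshold of 0.05. Differences are the group named first minus the other. The steps were tested on simulated data for PH70 against sham on 18166 genes, where 98% of 100 changes of size 1 and 99% of 100 of size 2 (log2) were called, with 10 false calls among the other genes. The simulated noise was normal with the residual SD of each gene, and independent between genes and arrays. It held no array that stood apart, unlike the PH70 group. The changed genes were drawn at random, so the rates do not apply to each member. The members and lists were chosen with earlier results of these data known. The text names all members, up to 2 called pathway genes of each role by size of change in each comparison with sham (a gene so named in one comparison is also given in others), the targets Tgfbi and Col3a1, chosen after their values were seen, and the 3 genes most correlated with each member. The subunit genes Inhbb and Inha were also named after their values were seen. Alternatives were fits of 2 groups, fits without rats 95 and 139 or without each rat, array weights, robust eBayes, centred arrays, probe sets on their own, and unoperated rats as control.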

Additional observations from a re-analysis of the deposited data

Results flagged for a closer look

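Within groups of 6 rats, the gap between the most extreme rat and its nearest neighbour was compared with the range of the group (Dixon's test). Of 45 groups tested, 9 genes in 5 groups, 4 held an outlying rat, where chance gives about 1 in 20. Tgfb1 was -0.22 in PH30 rat 95, with the next rat at 0.23. Inhbc was -0.57 in the same rat, with the next at 0.18. Tgfb2 was 1.24 in PH30 rat 99, with the next at 0.14. Smad7 was -0.66 in PH70 rat 139, with the next at -0.04. In 3 of the 4 the rat was one of the pair whose whole arrays stood apart from their groups.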

How the results depend on the processing

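The array number limits precision, since 6 rats per group carry all errors, and signal over background is unknown. No paired analysis was possible because no animal number occurs in 2 groups. The planned filter on dim probe sets could not be run, as centring removed the levels. The calls of 4 members in PH90 against sham and against PH70 kept their direction and side of the threshold in every alternative run. The cause of the changes below was not tested.

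Fitting only the groups compared gave 2 members and 2 pathway genes called in sham against unoperated, and 11 pathway genes in PH70 against sham. Without rats 95 and 139, sham against unoperated had 2 members, PH30 against sham 4 pathway genes, PH70 against sham 10 pathway genes, and PH70 against PH30 2 members and 3 pathway genes. Over all genes, the same fit called 1.74%, 10.9%, 23.7% and 13.3% in these comparisons. With all arrays the shares were 0.738%, 5.53%, 18.6% and 2.27%. Array weights gave 2 members and 1 pathway gene in sham against unoperated, 4 pathway genes in PH30 and 13 in PH70 against sham, and 2 members and 3 pathway genes in PH70 against PH30. Against unoperated rats in place of sham, PH30 had 2 members and 6 pathway genes and PH70 12 pathway genes, where 9.85% and 18.5% of all genes were called. For array weights, fits of 2 groups and single rats left out, the share of all genes is not given. Counts in those fits are therefore not read as results about the pathway. Leaving out each rat in turn gave 1 to 4 pathway genes in PH30 against sham, 2 (without PH70 rat 97) to 10 (without rat 139) in PH70 against sham, and 0 to 2 members and 0 to 2 pathway genes in PH70 against PH30.

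Some differences that had not passed the test changed sign, and none passed after the change. With array weights these were Tgfb2 in sham against unoperated (0.0126), Bambi in PH30 and PH90 against sham (0.0245 and 0.0175), and Tgfb2 and Smad7 in PH70 against PH30 (-0.0088 and 0.0162). Without rats 95 and 139 they were Inhbe and Bambi in PH30 against sham (0.0634 and 0.012), Fst and Smad7 in PH70 against PH30 (-0.0052 and 0.0271), and Smad7 in PH90 against PH70 and PH30 (-0.0685 and -0.0414). Bambi in PH90 against PH70 was -0.0007 with array medians subtracted, and Inhbc in PH30, at -0.50 against sham, was 0.2341 against unoperated rats.

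Leaving out each rat in turn, Bambi ranged from -0.0653 to 0.0778, -0.089 to 0.0542 and -0.0858 to 0.0574 in PH30, PH70 and PH90 against sham, from -0.0516 to 0.0036 in PH70 against PH30, and from -0.0639 to 0.0459 and -0.0402 to 0.0695 in PH90 against PH30 and PH70. Smad7 ranged from -0.1018 to 0.0941 in PH70 against PH30, from -0.0482 to 0.1031 and -0.0685 to 0.1379 in PH90 against PH30 and PH70, and from -0.0703 to 0.0068 in sham against unoperated. Fst ranged from -0.0195 to 0.0491 in PH70 against PH30, -0.0704 to 0.0079 in PH70 against sham and -0.0285 to 0.0504 in sham against unoperated. Inhbe ranged from -0.2817 to 0.0634 in PH30 against sham and -0.0095 to 0.0963 in sham against unoperated. Tgfb2 ranged from -0.0627 to 0.2308 in PH30 against sham, -0.0698 to 0.2353 in PH70 against PH30 and -0.0558 to 0.0338 in sham against unoperated. Tgfbr1 ranged from -0.1192 to 0.0607 in PH70 against PH30, -0.0294 to 0.1082 in PH90 against sham and -0.0634 to 0.0122 in sham against unoperated.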
